A study of Mus musculus with 6 samples.

Results

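The genes described here encode the growth-controlling kinase complex mTORC1 and proteins that restrain or gate it. They are the 10 symbols Mtor, Rptor, Rheb, Tsc1, Tsc2, Ddit4, Sesn2, Sesn3, Deptor and Flcn, taken by name from the 53465 genes of each count table, and all 10 passed the filter on low counts. Expression was measured by sequencing polyadenylated RNA of Royan B20 mouse embryonic stem cells, an established line, in 6 libraries. All 6 cultures grew in R2i medium with the cytokine LIF. MEK (1 µM PD0329501, as the labels spell it) and the type I receptors for TGF-beta and activin (10 µM SB431542) were therefore inhibited in the controls too. The 3 control libraries had no other addition, and the 3 BMP-inhibited libraries had BMP signalling blocked by 250 nM noggin, which binds BMPs outside the cell, with 5 µM dorsomorphin, an inhibitor of BMP receptors and of the energy-sensing kinase AMPK. The 2 agents were given together, so their effects cannot be told apart, and the duration is not given in the sources used here. Every value comes from 1 cell line in bulk culture, where fewer cells of a kind and less RNA per cell cannot be told apart. The labels call the replicates biological without naming separate cultures, so p-values measure the spread between these libraries.

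As background, mTORC1 consists of the kinase mTOR, the scaffold raptor (Rptor) and smaller partners, and it promotes protein, lipid and nucleotide synthesis when nutrients and growth factors are plentiful. The small GTPase RHEB switches the kinase on at the lysosome, and the TSC1-TSC2 complex switches RHEB off. REDD1 (Ddit4) acts through TSC2 under stress, sestrins hold back the amino acid branch that runs through the GATOR complexes and the Rag GTPases, and folliculin (Flcn) acts on the Rag GTPases together with FNIP proteins. In mouse embryonic stem cells mTOR activity is needed for proliferation. Most of this control acts on proteins, and the libraries report mRNA alone.

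Gene counts totalled 31474666 to 35322844 per library, and the 10 genes had 1464 to 12937 counts in each. The embryonic stem cell markers were all detected, with a summed level of 5093 to 5271 CPM (counts scaled to library size with TMM factors) in controls and 4781 to 5017 in BMP-inhibited libraries. Of these 10 markers 2 were called higher and 6 lower, where 32.5% of all genes tested were called higher and 31.7% lower. Summed levels of markers of other states were higher with BMP inhibitors, though not every marker was called. The 8 trophectoderm markers summed to 168 to 171 CPM in controls and 297 to 374 in BMP-inhibited libraries, with 4 of the 6 tested called higher. In controls this sum mostly reflects Tfap2c, which had 4205 to 4683 counts there and 3944 to 4671 with BMP inhibitors. The 8 markers of the 2-cell-like state summed to 0.0276 to 0.0603 and 23.5 to 34.7 CPM, with all 7 tested called higher. The 10 fibroblast markers summed to 6.14 to 7.64 and 14.9 to 15.99 CPM, with 4 of the 6 tested called higher. No marker was at 0 in all 6 libraries. In all 3 controls the fibroblast markers Col3a1, Lum and Acta2 and the 2-cell-like markers Zscan4c, Zscan4f, Duxf3, Tcstv3 and Zfp352 were at 0. The part of these states in the values below was not tested.

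The mRNA levels of the mTORC1 genes differed little between the groups. The test was edgeR's quasi-likelihood test with Benjamini-Hochberg adjustment over all 15951 genes tested, and a gene is called at an adjusted p under 0.05. Of the 10 genes, Ddit4, Sesn2 and Mtor were called lower in BMP-inhibited cells and Deptor higher, while 6 were not called. Across all genes tested 64.2% were called, 32.5% higher and 31.7% lower. None of the 10 changed 2-fold, where 15.5% of all genes were called with at least that change. The median absolute log2 fold change was 0.08 for the 10 genes and 0.37 for all genes tested, and the medians with sign were -0.05 and -0.00310. All genes tested include many with low counts, which the 10 genes do not, and the comparison is not matched for expression level. Ddit4 had the largest change of the 10, and 44.7% of all genes tested changed less than it did. For Tsc2, at the other end, that share was 2.46%. The groups did not overlap for the 4 called genes and overlapped for the other 6. Of all genes, 68.6% had groups that did not overlap.

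**Figure D1:**
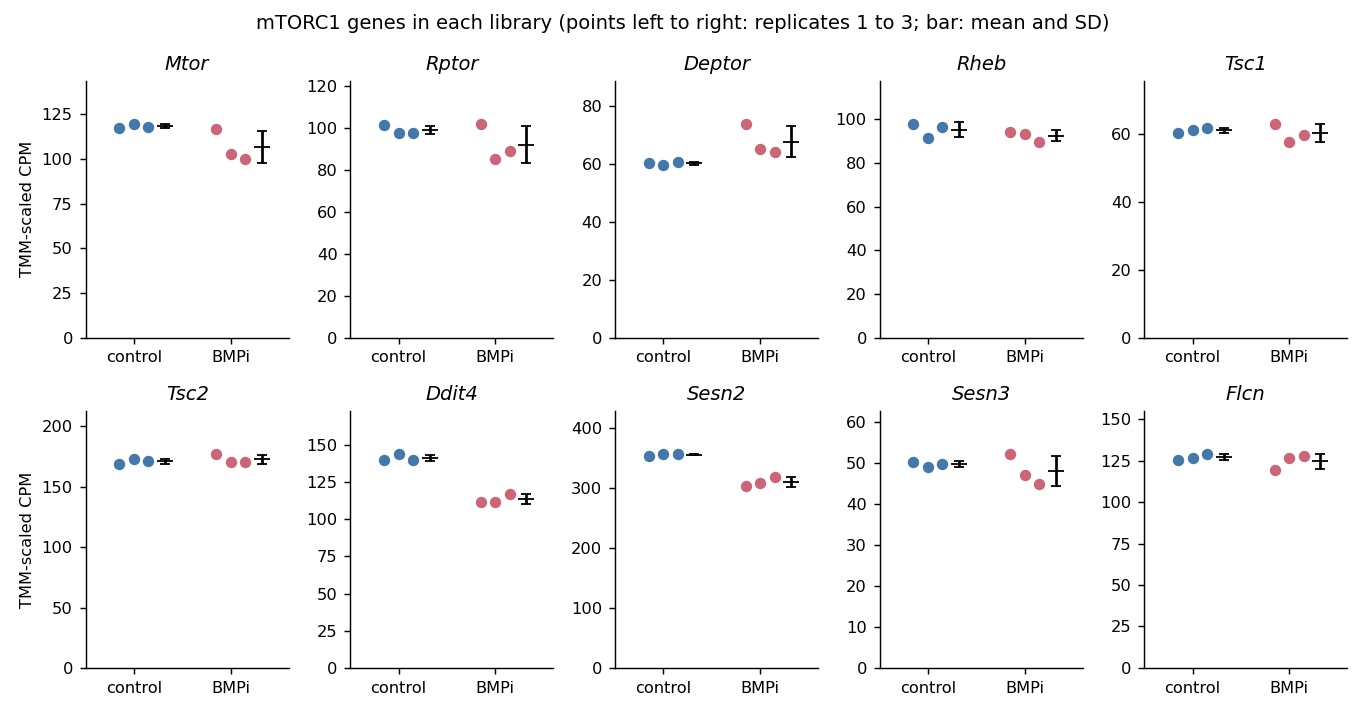
TMM-scaled CPM (vertical axes, from 0) of the 10 mTORC1 genes in 3 control (blue) and 3 BMP-inhibited (red) libraries, with each group's mean and SD in black. The groups stand clear of each other for Ddit4 and Sesn2, are separate by a small margin for Mtor, and overlap for Rptor, Rheb, Tsc1, Tsc2, Sesn3 and Flcn.

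**Figure D2:**
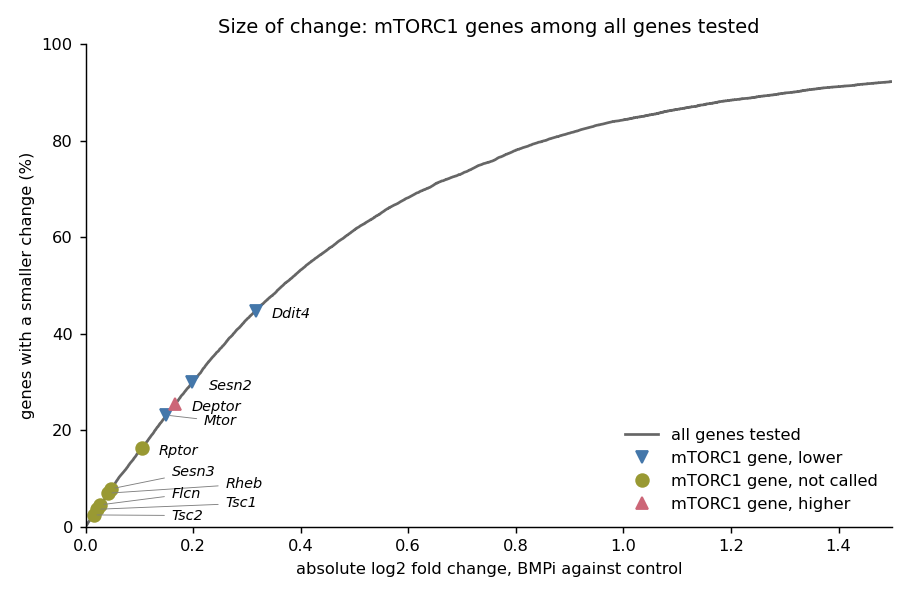
Share of all 15951 genes tested (vertical axis, %) whose absolute log2 fold change is below the value on the horizontal axis, with the 10 mTORC1 genes marked on the curve. The 10 genes lie between 2.46% (Tsc2) and 44.7% (Ddit4), and the horizontal axis ends at 1.5, so the most changed genes are off the plot. The curve is not matched to the 10 genes for expression level.

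The clearest decreases were those of the stress-induced brakes Ddit4 and Sesn2, so their upstream sequences are shown first. They come from RefSeq (GRCm38.p6), which held promoters for 9 of the 10 genes. Each runs 5′ to 3′ on the gene's strand from 250 bases before the RefSeq start and stops before the first base of the GENCODE gene. Capitals mark ACGTG, the core that hypoxia-inducible factors read. Ddit4 is at chr10:59951835-59952020 on the minus strand and Sesn2 at chr4:132510502-132510706 on the minus strand.
Ddit4: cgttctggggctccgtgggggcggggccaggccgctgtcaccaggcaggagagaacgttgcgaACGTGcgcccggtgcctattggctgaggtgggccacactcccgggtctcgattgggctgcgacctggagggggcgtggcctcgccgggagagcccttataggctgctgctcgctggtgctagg
Sesn2: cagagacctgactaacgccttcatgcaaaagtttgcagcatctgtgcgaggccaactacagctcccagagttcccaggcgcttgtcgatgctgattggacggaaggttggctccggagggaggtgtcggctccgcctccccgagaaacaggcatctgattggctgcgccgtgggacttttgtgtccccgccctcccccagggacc

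Over the full window from 250 bases before to 50 after the start, ACGTG was sought on both strands and occurred once in Ddit4, at -187 to -183 from the RefSeq start, and not in Sesn2. It occurred in 19.6% of 32851 promoters of this length. TGATGNAA, the core of the element that ATF4 reads with C/EBP partners, was in 3.97% of those promoters and in none of the 9 promoters available for the mTORC1 genes. ACGTG was also in Rptor, at -34 to -30. The E-box CACGTG, read by TFEB and TFE3, was in 7.15% of promoters and, among the 9, in Rheb alone, at -96 to -91. Each CACGTG also holds an ACGTG on either strand. The matches describe these windows and do not show binding.

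Ddit4 (ENSMUSG00000020108, GRCm38 chromosome 10, 59949669 to 59951834) encodes REDD1, which is induced by hypoxia, DNA damage and endoplasmic reticulum stress and releases TSC2 from inhibition. Its level was 139.8, 143.8 and 140.0 CPM in the control libraries and 111, 112 and 117 CPM in the BMP-inhibited ones. All 3 BMP-inhibited libraries lay below every control. Ddit4 fell by 0.32 on the log2 scale (SE 0.04, adjusted p = 9.89e-06), from 141 ± 2.27 to 113 ± 3.32 CPM (SD, n = 3). Its relative Ddit4l, which encodes REDD2, moved the other way. Ddit4l was at 8.84, 9.24 and 9.05 CPM in controls and 23.1, 19.0 and 21.6 CPM in BMP-inhibited libraries, and rose by 1.23 (SE 0.09, adjusted p = 1.50e-08). Per kilobase of exon, Ddit4 remained the more abundant of the pair, at 64.6 ± 1.89 against 7.28 ± 0.704 CPM per kb in BMP-inhibited cells.

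Sesn2 (ENSMUSG00000028893, chromosome 4, 132492032 to 132510501) encodes sestrin 2, a leucine sensor that restrains GATOR2 and that ATF4 and p53 are known to induce. Its level was 354, 357 and 357 CPM in controls and 303, 309 and 319 CPM in BMP-inhibited libraries, with no overlap. Sesn2 fell by 0.20 on the log2 scale (SE 0.04, adjusted p = 0.000351). Sesn3 (ENSMUSG00000032009, chromosome 9, 14275067 to 14333101), a sestrin known as a FOXO target, was not called. Sesn3 was at 50.3, 48.9 and 49.7 CPM in controls and 52.1, 47.0 and 44.8 CPM in BMP-inhibited libraries, where replicate 1 lay above and the other 2 below every control. Its log2 fold change was -0.05 (95% interval -0.18 to 0.08, adjusted p = 0.509).

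The sestrin outside the 10 genes, Sesn1, is a p53 target and had the largest change of the family. It was at 17.97, 15.03 and 16.5 CPM in controls and 38.8, 33.4 and 37.8 CPM in BMP-inhibited libraries, and rose by 1.15 (SE 0.08, adjusted p = 8.37e-09). Levels per kilobase of exon put Sesn2 far above the others, at 102 ± 0.414 CPM per kb in controls against 4.15 ± 0.368 for Sesn1 and 3.25 ± 0.0464 for Sesn3. Of the summed sestrin level per kb, Sesn1 held 3.77% ± 0.334 in controls and 9.06% ± 0.681 in BMP-inhibited libraries. The share of Sesn2 was 93.3% ± 0.375 and 87.8% ± 0.872, and that of Sesn3 2.96% ± 0.0409 and 3.10% ± 0.294 (SD, n = 3). The shares of Sesn1 and Sesn2 did not overlap between groups. An exact permutation test gave p = 0.1 for each of these, two-sided, the smallest that 3 against 3 libraries allow, and p = 0.6 for Sesn3. The summed level itself was 109.8 ± 0.204 CPM per kb in controls and 102 ± 2.22 in BMP-inhibited libraries (exact permutation p = 0.1, two-sided).

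**Figure D3:**
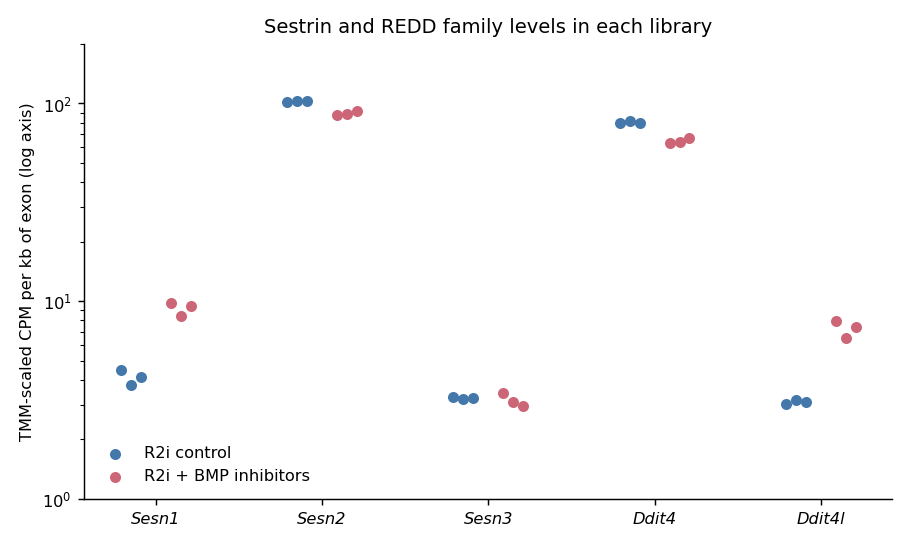
TMM-scaled CPM per kilobase of exon (logarithmic axis) of the sestrin genes Sesn1, Sesn2 and Sesn3 and the REDD genes Ddit4 and Ddit4l, each point 1 library, control in blue and BMP-inhibited in red. Sesn2 and Ddit4 are the abundant members and lower in all 3 BMP-inhibited libraries, while the scarce Sesn1 and Ddit4l are higher in all 3.

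In the kinase complex itself, Mtor and Deptor were called in opposite directions, and each call was lost when some single libraries were left out. Mtor (ENSMUSG00000028991, chromosome 4, 148448611 to 148557683), the kinase gene, was at 117.4, 119.8 and 118.2 CPM in controls and 117.1, 103 and 100.04 CPM in BMP-inhibited libraries. BMP-inhibited replicate 1 lay just under the lowest control, so the separation of the groups rests on the other 2. Mtor fell by 0.15 on the log2 scale (SE 0.05, adjusted p = 0.0243). Its call was lost without control replicate 1, 2 or 3 (adjusted p = 0.0561, 0.0757 and 0.0623) and also when BMP-inhibited replicate 2 was omitted (-0.12, adjusted p = 0.0537) or replicate 3 (-0.10, adjusted p = 0.135). Deptor (ENSMUSG00000022419, chromosome 15, 55112317 to 55259271) encodes an inhibitor that binds mTOR in both of its complexes. It was at 60.4, 59.4 and 60.5 CPM in controls and 73.7, 64.9 and 63.9 CPM in BMP-inhibited libraries, where replicate 1 was the highest. Deptor rose by 0.17 (SE 0.06, adjusted p = 0.0205). The Deptor call was lost with library totals in place of TMM scaling (0.11, adjusted p = 0.117), without control replicate 1, 2 or 3 (adjusted p = 0.0627, 0.0956 and 0.0708) and when BMP-inhibited replicate 1 was omitted (0.10, adjusted p = 0.0765).

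Rptor (ENSMUSG00000025583, chromosome 11, 119602905 to 119899576), the scaffold that recruits substrates, was at 101, 97.8 and 97.8 CPM in controls. It was at 102, 85.1 and 89.0 CPM in BMP-inhibited libraries, so replicate 1 lay above every control and the other 2 below. Rptor was not called (log2 fold change -0.11, 95% interval -0.23 to 0.02, adjusted p = 0.132). Omitting BMP-inhibited replicate 1 brought Rptor past the threshold (-0.18, adjusted p = 0.00186), as did scaling by library totals alone (-0.16, adjusted p = 0.0215). The other subunits of the complex had larger estimated changes. Akt1s1, which encodes the inhibitory subunit PRAS40, was at 43.9 ± 1.12 CPM in controls and 67.3 ± 5.53 CPM with BMP inhibitors, and rose by 0.61 (SE 0.06, adjusted p = 4.09e-07). Mlst8, a subunit of both mTOR complexes, rose by 0.21 (SE 0.06, adjusted p = 0.00866). The 95% interval of Mlst8, 0.08 to 0.35, overlapped that of Deptor, 0.04 to 0.29.

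The mRNAs of RHEB and of TSC1 and TSC2, its off-switch, were not called and overlapped between the groups, while the gene of the remaining TSC complex subunit, Tbc1d7, was called lower. Rheb (ENSMUSG00000028945, chromosome 5, 24802823 to 24842624) was at 97.8, 91.4 and 96.3 CPM in controls and 94.3, 93.4 and 89.5 CPM in BMP-inhibited libraries. Its log2 fold change was -0.04 (95% interval -0.14 to 0.06, adjusted p = 0.444). Tsc1 (ENSMUSG00000026812, chromosome 2, 28641228 to 28691167), which stabilises TSC2, was at 60.4, 61.1 and 61.9 CPM in controls and 63.0, 57.8 and 59.8 CPM in BMP-inhibited libraries. The control values fell inside the range of the BMP-inhibited ones (log2 fold change -0.02, 95% interval -0.13 to 0.09, adjusted p = 0.733). Tsc2 (ENSMUSG00000002496, chromosome 17, 24595816 to 24632630), the GTPase-activating subunit that turns RHEB off, was at 169, 173 and 171 CPM in controls and 177, 170.6 and 170.7 CPM in BMP-inhibited libraries. The log2 fold change of Tsc2 was 0.01 (95% interval -0.07 to 0.10, adjusted p = 0.765). Across Rheb, Tsc1 and Tsc2 the intervals extend no further than -0.14 and 0.10. Tbc1d7 went from 26.7 ± 1.25 CPM in controls down to 20.7 ± 1.58 CPM and so fell by 0.36 on the log2 scale (SE 0.08, adjusted p = 0.000615). Rhebl1, the relative of Rheb, fell by 0.22 (SE 0.06, adjusted p = 0.0061).

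Flcn (ENSMUSG00000032633, chromosome 11, 59791408 to 59810016) encodes folliculin, which with FNIP1 or FNIP2 activates RagC and RagD and keeps TFEB and TFE3 out of the nucleus. It was at 126, 127 and 129 CPM in controls and 119, 126 and 128 CPM in BMP-inhibited libraries, which overlapped. Its log2 fold change was -0.03 (95% interval -0.12 to 0.07, adjusted p = 0.598). Of the list of folliculin partners and TFE factors, 3 of 5 fell and 0 rose, with a median of -0.22. The share called was 60%, beside 64.2% of all genes tested. Fnip2 fell by 0.22 (SE 0.05, adjusted p = 0.00232). Fnip1 had a log2 fold change of -0.09 (adjusted p = 0.155), and was called when BMP-inhibited replicate 1 was omitted (-0.12, adjusted p = 0.0449) or when library totals replaced TMM (-0.15, adjusted p = 0.0279). The transcription factor genes Tfe3 and Mitf fell by 0.41 and 0.90 on the log2 scale.

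**Figure D4:**
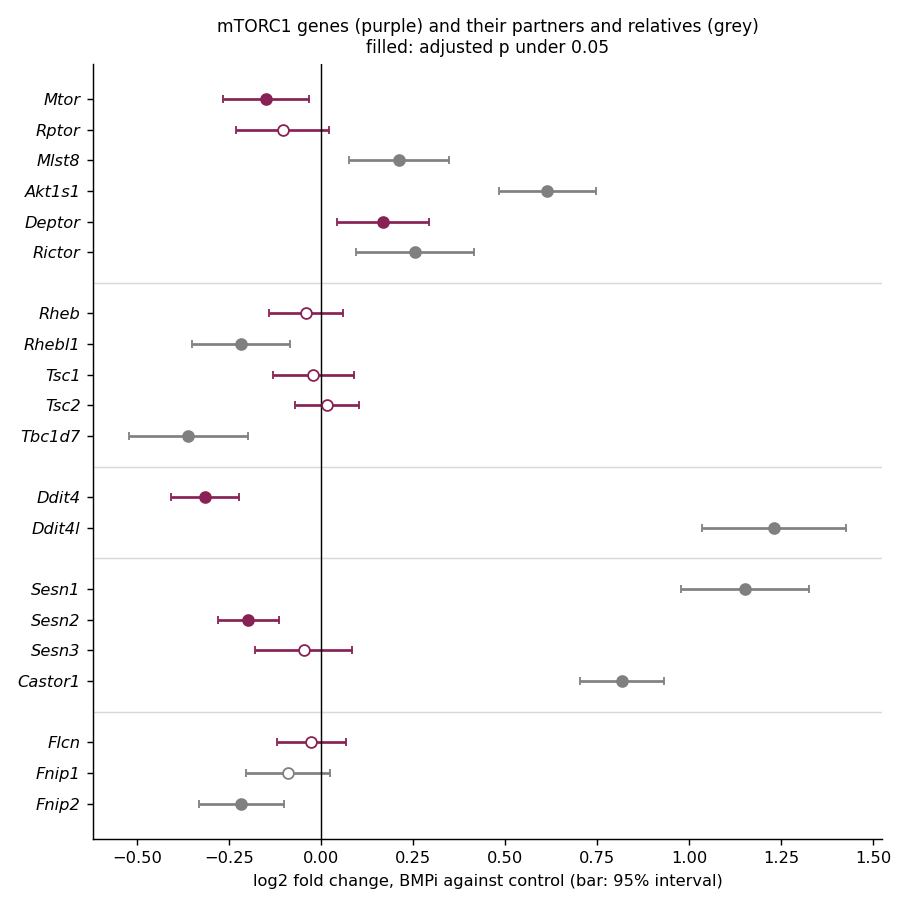
Log2 fold change with its 95% interval (horizontal axis) for the 10 mTORC1 genes in purple and their partners and relatives in grey, filled where the adjusted p is under 0.05. The purple points stay between -0.32 (Ddit4) and 0.17 (Deptor), while Ddit4l, Sesn1, Castor1 and Akt1s1 lie at 1.23, 1.15, 0.82 and 0.61.

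Compared as levels per kilobase of exon in controls, the 10 genes ranked as Sesn2 (102 CPM per kb), Ddit4 (80.5), Flcn (29.4), Tsc2 (17.8), Rheb (12.3), Mtor (11.7), Rptor (7.35), Deptor (6.77), Tsc1 (5.17) and Sesn3 (3.25). The brakes Sesn2 and Ddit4 were thus the most abundant transcripts of the set in both groups. Rheb and Mtor overlapped between control libraries, at 11.83 to 12.7 and 11.6 to 11.85 CPM per kb, and no other neighbours in this order did. In BMP-inhibited libraries Deptor (7.61 ± 0.608) and Rptor (6.83 ± 0.656) changed places, with overlapping values. With the longest transcript as the length, Rptor came before Mtor (15.01 and 13.8 CPM per kb) and Tsc1 before Deptor (7.94 and 7.03), so those neighbours have no fixed order.

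The spread between libraries was larger with BMP inhibitors. The SD of log2 CPM was larger in the BMP-inhibited than in the control group for 9 of the 10 genes, all but Rheb, and for 70.9% of all genes tested. Its median over the 10 genes was 0.0184 in controls and 0.0585 in BMP-inhibited libraries, against 0.0672 and 0.120 over all genes tested. BMP-inhibited replicate 1 had the highest of the 3 BMP-inhibited values for 7 of the 10 genes (Mtor, Rptor, Rheb, Tsc1, Tsc2, Sesn3 and Deptor) and the lowest for Ddit4, Sesn2 and Flcn. The same share over all genes tested was not computed, so whether this is particular to the 10 genes is not known.

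By the median absolute change, the rest of the pathway moved more than the 10 genes did and less than all genes tested. Of 63 further genes in 9 lists of pathway components, 22 rose and 22 fell, 69.8% in all beside the background of 64.2%. Their median absolute log2 fold change was 0.28, between 0.08 for the 10 genes and 0.37 for all genes tested. These medians are not matched for expression level. Among 8 partners in the mTOR complexes 3 rose and 2 fell (median -0.06). Besides Akt1s1 and Mlst8, Rictor, the scaffold of mTORC2, rose by 0.25 (SE 0.08), a call lost without control replicate 3 (0.21, adjusted p = 0.0637). Mapkap1, also of mTORC2, fell by 0.43, and Tti1, which helps assemble mTOR complexes, by 0.20. Of the 3 relatives of the TSC complex, RHEB and REDD1, Ddit4l rose and Tbc1d7 and Rhebl1 fell, as given above (median -0.22).

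Rragb had the largest change of all listed genes upstream of the kinase. Of 10 genes for Rag GTPases, the Ragulator complex that anchors them and the lysosomal arginine sensor SLC38A9, 2 rose and 5 fell (median -0.13). The share called was 70%, beside 64.2% of all genes tested. Rragb (ENSMUSG00000041658, chromosome X, 153139981 to 153171943), which encodes RagB, was at 52.8, 53.2 and 52.6 CPM in controls and 12.5, 17.1 and 14.3 CPM in BMP-inhibited libraries. All 3 BMP-inhibited values were far below every control, and Rragb fell by 1.85 on the log2 scale (SE 0.09, adjusted p = 9.51e-11). Its near relative Rraga fell from 92.1 ± 1.25 to 78.4 ± 5.396 CPM, by 0.23, and Rragd from 134 ± 0.446 to 82.0 ± 5.95 CPM, by 0.71. Slc38a9 fell by 0.41. Lamtor1 (-0.15) was the other gene to fall, and Rragc (0.18) and Lamtor4 (0.20) were those that rose, named here after their values were seen. The count of risers on this list was 1 with upper-quartile factors, 0 with library totals and 1 without control replicate 1, 2 or 3 or BMP-inhibited replicate 2 or 3.

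Amino acid sensors split by gene. Of the 5 on this list, 3 rose and 1 fell (median 0.77), 80% called beside 64.2% of all genes tested. The list leaves out Sesn2, Sesn3 and Slc38a9, which are counted elsewhere. Their log2 fold changes were -0.20, -0.05 and -0.41, so the median depends on how the list was drawn. With Sesn1, the arginine sensor gene Castor1 rose by 0.82 (SE 0.05), with 41.1 ± 1.06 CPM in controls and 72.5 ± 2.68 CPM in BMP-inhibited libraries, and Bmt2, which encodes the S-adenosylmethionine sensor SAMTOR, rose by 0.77. Lars, the leucyl-tRNA synthetase gene, fell by 0.76 (SE 0.04), from 478 ± 2.22 to 282 ± 8.35 CPM. Of the 6 genes of GATOR1, which turns the Rag GTPases off, and KICSTOR, which anchors it, 3 fell and 0 rose (median -0.11). The share called was 50%, below that of all genes. Kptn and Depdc5 fell by 0.50 and 0.37. Itfg2 fell by 0.16, a call lost without control replicate 2 or 3 (adjusted p = 0.0634 and 0.0702) or BMP-inhibited replicate 2 (-0.11, adjusted p = 0.0754), and Nprl3 had a log2 fold change of -0.06 (adjusted p = 0.449). Of the 5 genes of GATOR2, the complex that sestrin 2 binds, 2 rose and 0 fell (median 0.12), 40% called and also below that share. Seh1l and Sec13, which also belong to the nuclear pore, rose by 0.30 and 0.16, and Wdr59 and Mios had log2 fold changes of 0.12 and 0.04 (adjusted p = 0.0658 and 0.588).

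Among mRNAs of the growth factor branch and of mTORC1 effectors, 87.5% and 76.9% were called, beside 64.2% of all genes tested. These mRNA levels do not measure mTORC1 activity. Of 8 genes of the PI3K-AKT branch, 6 rose and 1 fell (median 0.38), with Pik3cb, a catalytic subunit of PI3K, and the kinase genes Akt1 and Akt2 higher by 0.50, 0.46 and 0.45. The gene that fell was Pik3r1 (-0.39), a regulatory subunit of PI3K, named after its value was seen. Of 13 downstream effectors 5 rose and 5 fell (median -0.04). Grb10, an adaptor that mTORC1 phosphorylates and that dampens insulin signalling, was at 395, 396 and 395 CPM in controls and 107, 106 and 94.9 CPM in BMP-inhibited libraries, and fell by 1.95 (SE 0.05, adjusted p = 1.37e-13). Eif4b, a translation initiation factor, and Lpin1, a lipin phosphatase, rose by 0.45 and 0.71. Maf1, the repressor of RNA polymerase III, fell by 0.38. The other effectors that rose, named after their values were seen, were Ulk1, Larp1 and Rps6 (0.28, 0.25 and 0.11), and those that fell were Pdcd4, Rps6kb2 and Eif4ebp2 (-0.50, -0.40 and -0.26).

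**Figure D5:**
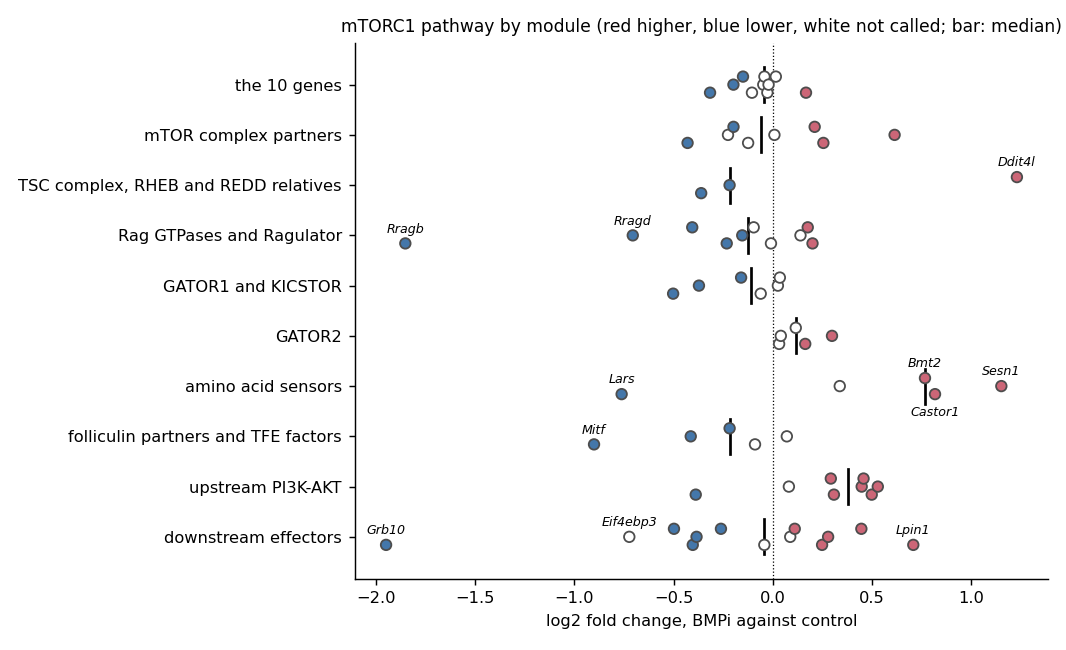
Log2 fold change (horizontal axis) of each gene in the 10-gene set and in 9 lists of mTORC1 pathway components, red where called higher, blue where called lower, white where not called, with a bar at each list's median. The 10 genes sit in a narrow band around 0, whereas Rragb (-1.85), Grb10 (-1.95), Ddit4l (1.23) and Sesn1 (1.15) lie far outside it.

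Ddit4 and Sesn2 are known targets of both ATF4 and p53, and genes of those groups went opposite ways. Of 12 ATF4 and CHOP genes 11 fell and 0 rose (median -1.59, with Atf3 not called, at 0.01). Of 10 p53 target genes, Sesn1 among them, 10 rose and 0 fell (median 0.81). Among all genes tested 31.7% were called lower and 32.5% higher. The direction of these groups had been seen in earlier results of these data and is no independent evidence. Nupr1, Vldlr and Ddit3 fell by 1.82, 1.84 and 1.97 and Trib3 by 1.48. Pmaip1, Mdm2, Phlda3 and Zmat3 rose by 1.93, 1.25, 1.21 and 0.85. Ddit4 and Sesn2, at -0.32 and -0.20, lay between the 2 groups' medians, on the side of zero of the ATF4 genes. Whether either factor accounts for them was not tested.

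Rptor, Tsc2 and Deptor overlap exons of antisense genes (Rptoros, Pkd1 and Gm9920), and the strand setting of the counting is not given in the sources used here, so their counts are uncertain. The same holds for Mlst8, Akt1s1, Rhebl1, Rragc, Lamtor1, Slc38a9, Itfg2, Nprl3, Wdr59, Seh1l, Rps6kb2 and Ddit3, and Akt1s1, Rhebl1 and Ddit3 also overlap a gene on their own strand. No near-identical copy was found for any of the 10 genes among annotated transcripts.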

How the data were processed

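The authors deposited 1 table of raw read counts per Ensembl gene for each library. Without roles, the notes submitted on processing list STAR 2.6.1 and HTSeq 0.9.1, the build GRCm38.p6, and also cutadapt 1.4.2, CASAVA 1.8.2 and DESeq2. Annotation release and strand setting are not given in the sources used here. The 5 rows naming no gene (25.6% to 26.4% of reads) were left out. GENCODE M21 matched 53360 of 53465 identifiers. Genes were filtered with filterByExpr (minimum count 10, total 15) and tested with edgeR 4.0.16 (TMM, quasi-likelihood F test, two-sided) on all 6 libraries. The F statistic and its coefficient gave SE and 95% intervals. Levels are TMM-scaled CPM, per kilobase of union exon length where genes are compared. Tools were R 4.3.3, limma 3.58.1, DESeq2 1.42.0, Python 3.11.15 and BLAST 2.17.0 (copies at 90% identity over 50% of the longest transcript). The test was tested on simulated data. The genes and lists were chosen with earlier results of these data known. Named are all 10 genes, the 4 smallest p-values of each of 12 lists, family relatives, and the 3 genes nearest in pattern to the most negative and the most positive gene; others are marked in the text. 1 gene this rule names is not reported here. Alternatives were other scalings and tests, other filters, a replicate block and leaving out each library. Replicates of a group differed beyond sampling noise.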

Additional observations from a re-analysis of the deposited data

How the results depend on the processing

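Of the 10 genes, Ddit4 (log2 fold change -0.38 to -0.30) and Sesn2 (-0.26 to -0.18) kept direction and call under all 8 settings and without each library. Library totals in place of TMM, which shift the median of all genes to -0.06, left 0 of the 10 genes higher, with Deptor at 0.11, Rptor called at -0.16, Tsc2 reversed at -0.044, Mios reversed at -0.019, and 0 Rag and Ragulator genes higher. Upper-quartile factors gave Tsc2 at -0.00122 and 1 Rag or Ragulator gene higher. Leaving out 1 library at a time gave 0 to 1 of the 10 genes higher and 2 to 4 lower, and 1 to 3 Rag or Ragulator genes higher. Ranges were -0.22 to -0.10 for Mtor, -0.18 to -0.0497 for Rptor, 0.10 to 0.21 for Deptor, -0.0534 to 0.0093 for Tsc1, -0.00098 to 0.027 for Tsc2, -0.11 to 0.0017 for Sesn3 and -0.0455 to 0.0046 for Flcn. The difference in the Sesn3 share ranged from -0.015 to 0.278 percentage points. The cause was not tested. A replicate block changed no call of the 10 genes (Mtor -0.15, adjusted p = 0.0143, and Deptor 0.16, adjusted p = 0.0182). The same-numbered libraries did not deviate together (correlations -0.0443, 0.00791 and 0.0287), so no pairing by number was visible. With 3 libraries a group these values cannot decide whether the cultures were paired, and the labels state no pairing. The SEs of the 10 genes were 0.04 to 0.06 on the log2 scale. Rptor, at -0.11 with an SE of 0.06, was not called, while Rps6, at 0.11 with an SE of 0.04, was (adjusted p = 0.0206). Changes of that size were thus not detected for every gene.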

Other observations

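FOXO factors and genes known as their targets, the family to which Sesn3 is usually assigned, did not move one way. Of 10, 3 rose and 4 fell (median -0.04), 70% called beside 64.2% of all genes tested. The 3 not called were the genes of the FOXO factors themselves, and every target gene on the list was called. Irs2, an insulin receptor substrate, and Bcl2l11, which encodes the pro-apoptotic BIM, rose by 0.95 and 1.09, while Cdkn1b, which encodes the cell cycle inhibitor p27, and Gadd45a fell by 0.80 and 0.60. The others called, named after their values were seen, were Bcl6 (0.85), Insr (-0.54) and Ccng2 (-0.45). Irs2, Bcl6 and Gadd45a overlap antisense exons, so their counts are uncertain.

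By distance between mean-centred log2 CPM over the 6 libraries, the genes most like Ddit4 among 11141 compared were Smtn, Amz2 and Dpf2 (distances 0.03, 0.04 and 0.05). Those most like Deptor were Zbtb44, Tpr and Cramp1l (0.04, 0.04 and 0.05). Like Deptor, all 3 had their highest value in BMP-inhibited replicate 1, a likeness that the choice by distance over the same libraries favours. A pattern over 6 libraries in 2 groups holds little beyond the difference between the groups.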
